A study of Mus musculus with 4 samples.

Results

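The 10 genes described here encode cytokines by which resident cells of a tissue instruct lymphocytes, together with 1 natural antagonist: *Il1a*, *Il1b*, *Il18* and *Il33* of the IL-1 family, the receptor antagonist *Il1rn*, the subunits *Il12b*, *Il23a* and *Il27*, and *Il6* and *Tslp*. They were taken by gene ID from both gene expression libraries of small intestinal lamina propria (SILP) cells, and they are 10 of the 31,950 gene IDs that both libraries list. WT mice were compared with A20ZF7 mice, which are knock-ins with point mutations in the zinc finger of A20 (*Tnfaip3*) that binds linear ubiquitin, in all cells of the animal. All animals were 12 weeks old and untreated as far as the labels say. Each genotype was 1 library of cells from 2 mice, so no value below has a replicate library and no p-value is given. The cells had passed a negative selection kit for T cells and ILCs, so the macrophages, stromal cells and epithelial cells seen here are those that remained after that step, and their share of all barcodes is set by it. The libraries were made with a 5′ droplet kit, which counts each captured transcript once by its unique molecular identifier (UMI).

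IL-1β and IL-18 are made as precursors that inflammasome caspases cut, and IL-1β and IL-1α signal through the same receptor, where IL-1Ra, the product of *Il1rn*, competes with them. IL-23 is a dimer of the *Il12b* and *Il23a* products and sustains IL-17-producing lymphocytes, whereas IL-12 pairs the *Il12b* product with that of *Il12a* and drives IFN-γ. IL-33 and TSLP are alarmins of stromal and barrier cells that act on group 2 innate lymphocytes and regulatory T cells, IL-6 helps naive T cells become Th17 cells, and IL-27 restrains them.

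Cells were 14,753 WT barcodes with a median of 1059 UMIs and 43,218 A20ZF7 barcodes with a median of 853, and 913 barcode sequences occurred in both libraries. Clusters were named from marker lists, and every class is called by its likeness to a cell type. There were 210 WT and 1124 A20ZF7 macrophage-like cells, 15 and 148 dendritic-like cells, 4 and 37 mast-like cells, 5344 and 12,571 fibroblast-like cells, 1951 and 1701 smooth muscle-like cells, 483 and 1662 endothelial-like cells, 588 and 329 epithelial-like cells, 3081 and 5412 ILC-like cells and 2167 and 14,398 T-like cells. All 13 macrophage markers were found in the macrophage-like cells of both libraries, where their levels in CPM, the UMIs scaled to a common total and the unit of every level here, summed to 7892 CPM in WT and 5198 CPM in A20ZF7 mice. No neutrophil or B cell cluster met the naming rule. The 13 T cell markers, in contrast, were spread beyond the T-like cells, and more so in the A20ZF7 library: they summed to 480 CPM in WT and 1464 CPM in A20ZF7 fibroblast-like cells, and to 249.8 CPM and 2105 CPM in epithelial-like cells. Free RNA was read from barcodes with 2 to 100 UMIs. Intervals are exact 95% intervals of counting error alone, and do not hold the spread between animals.

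The members differed in where they were read. *Il1b*, *Il1rn* and *Il12b* were highest in the macrophage-like and dendritic-like cells, *Il27* in macrophage-like cells, *Il18* in epithelial-like cells, *Il33* in fibroblast-like cells, *Tslp* in fibroblast-like and endothelial-like cells, and *Il6* in 1 fibroblast cluster and 1 ILC cluster. Over all named and unnamed cells *Il33* had 1074 WT and 1375 A20ZF7 UMIs, *Il1b* 337 and 1417, *Il18* 646 and 123, and *Il6* 315 and 552. The other members were scarce: *Tslp* had 78 and 126 UMIs, *Il1rn* 37 and 106, *Il1a* 10 and 33, *Il27* 4 and 31, *Il12b* 1 and 53, and *Il23a* 1 and 7. No UMI of any member was seen in the mast-like cells, whose number allows levels of up to 645 CPM in WT and 91.6 CPM in A20ZF7 mice.

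**Figure D1:**
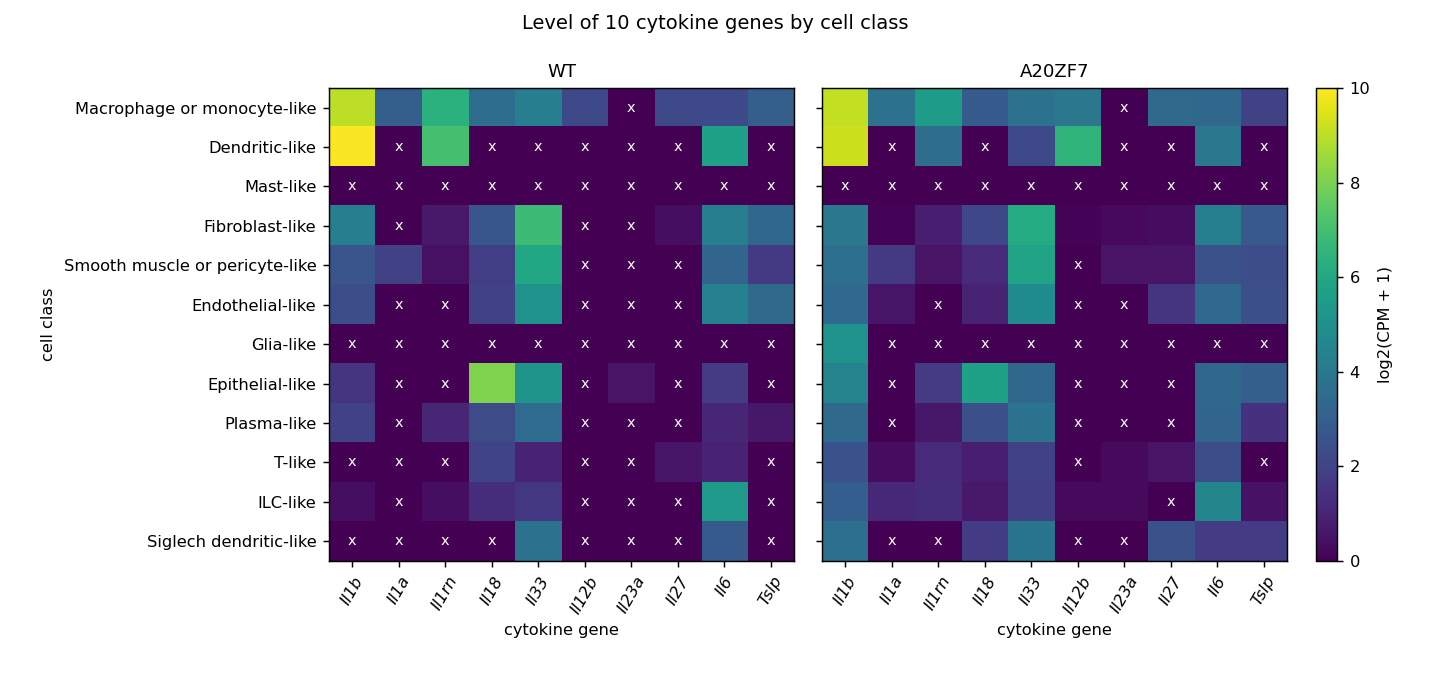
Level of each of the 10 members (columns) in each named class (rows), WT on the left and A20ZF7 on the right, as colour on a log2(CPM + 1) scale, with a white x where no UMI was found. Myeloid classes carry *Il1b* (516 and 543 CPM in macrophage-like cells), epithelial-like cells *Il18* (265 and 52.0 CPM) and fibroblast-like cells *Il33* (114 and 69.4 CPM), and the mast-like row holds no UMI.

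In the mm10 assembly (GRCm38) the members lie on separate chromosomes except for the IL-1 genes of chromosome 2, where *Il1a* (129299609 to 129310186) and *Il1b* (129364569 to 129371164) are neighbours with 54,382 bases between them and *Il1rn* lies apart, at 24336860 to 24351491. *Il33* lies on chromosome 19 (29925113 to 29960718), *Il18* on chromosome 9 (50554700 to 50581841), *Il6* on chromosome 5 (30013114 to 30019975) and *Il12b* on chromosome 11 (44400063 to 44414677). A20 limits NF-κB signalling, so the 250 bases before each RefSeq transcript start were searched, on both strands, for the NF-κB consensus and for the AP-1 letters TGANTCA in the 10 promoters that RefSeq's GRCm38.p6 table gives for 7 of the members. The windows that matched are shown because they are the only NF-κB and AP-1 matches among those promoters, with the match in capitals. Of all 32,851 promoters, 7.25% held the NF-κB consensus and 6.75% the AP-1 letters. The *Il1a* transcript start of that table, 129309972, lies inside the gene span given above, and so does its window. A match is a description of the letters, not of binding.
*Il6*, NF-κB consensus, chr5:30013060-30013089, plus strand: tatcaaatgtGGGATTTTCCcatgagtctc
*Il6*, AP-1, chr5:30012864-30012893, plus strand: cTGAGTCActtttaaagaaaaaaaagaaga
*Il1rn*, AP-1, chr2:24336708-24336737, plus strand: ttctgctagacTGAGTCAcgcctctggaag
*Il1a*, AP-1, chr2:129309973-129310002, minus strand: taaaaaggcagagaagccTGACTCAgactt

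*Il1b*, the gene of IL-1β, was the most abundant myeloid member. Its level in macrophage-like cells did not differ beyond counting error, but it was higher in A20ZF7 mice relative to the macrophage markers of the same cells. It had 142 UMIs in WT macrophage-like cells, a level of 516 CPM (434 to 608), and 754 UMIs in A20ZF7 cells, a level of 543 CPM (505 to 583). The ratio of A20ZF7 to WT was 1.05 (0.879 to 1.27). Of the WT UMIs, 27 lay in 1 cell and 52 in 3 cells, against 34 in 3 cells of the A20ZF7 library. The WT level thus rests in part on few cells, which the intervals here do not cover. The summed macrophage markers of the macrophage-like cells had a ratio of 0.659 (0.628 to 0.691), and per 1000 of their UMIs *Il1b* was at 65.3 in WT and 105 in A20ZF7 mice, a ratio of 1.60 (1.33 to 1.94). At least 1 *Il1b* UMI was found in 41 of 210 WT cells (19.5%) and in 313 of 1124 A20ZF7 cells (27.8%), at median depths of 987 and 961 UMIs per cell. T-like cells, which should lack the gene, had it in 0 of 2167 WT and 49 of 14,398 A20ZF7 cells (0.340%), at median depths of 814 and 640.5 UMIs. Free RNA held *Il1b* at 14.1 CPM in WT and 37.6 CPM in A20ZF7 mice, both far below the macrophage level. Per macrophage-like cell there were 0.676 and 0.671 *Il1b* UMIs. These cells were 1.42% of WT and 2.60% of A20ZF7 cells, and they held 42.1% and 53.2% of all *Il1b* UMIs, shares that were 27.6% and 29.0% with a gate on marker UMIs. The *Il1b* level over all cells was 16.6 CPM for WT and 30.7 CPM for A20ZF7 mice, a ratio of 1.85 (1.64 to 2.09). That ratio reads the makeup of the captured cells together with the level within them. Outside the macrophage-like cells, UMIs were found in the T-like (0 and 52), ILC-like (1 and 34), plasma-like (5 and 36) and unnamed cells (6 and 89), besides the dendritic-like and fibroblast-like cells described below. Of the unnamed UMIs, 4 and 16 lay in cluster 12f and 2 and 52 in cluster 12h. Both clusters matched the macrophage list best and went unnamed because the markers of another list were high too.

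Within the macrophage-like cells the level depended on the subcluster, and it was higher in the A20ZF7 library in every subcluster but 12c. The subcluster with the highest macrophage markers (12d, led by *Lyz2*, *Apoe* and *C1qc*) had *Il1b* at 934 CPM in 45 WT cells and 1476 CPM in 177 A20ZF7 cells, a ratio of 1.58 (1.22 to 2.08), or 2.23 (1.69 to 2.96) per macrophage marker UMI, where 15.3% of genes were higher by 2-fold or more and 5.10% lower. The *Ccl8* and *Pf4* subcluster (12c) had the opposite order, 877 CPM in 51 WT cells and 561 CPM in 257 A20ZF7 cells, a ratio of 0.640 (0.457 to 0.909). In this subcluster 13.5% of genes were higher by 2-fold or more and 3.66% lower. Of its 48 WT UMIs, 27 came from 1 cell, so its WT level rests largely on that cell. The subcluster that also held fibroblast RNA (12b) had 319 and 374 CPM, with a fibroblast marker sum of 16,497 CPM in WT and 9795 CPM in A20ZF7 cells. The lowest level was that of the subcluster with the most T cell RNA (12a), at 28.5 and 85.3 CPM. Subcluster 12g had 105 CPM in 3 WT cells (1 UMI) and 525 CPM in 83 A20ZF7 cells, a ratio of 5.01 (0.881 to 200). The ratios of 12a (0.722 to 26.5) and 12b (0.747 to 1.94), as that of 12g, had intervals that span 1.

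Neutrophil genes were also found in subcluster 12d of the A20ZF7 library, where all *S100a8* and *S100a9* UMIs lay in 8 of the 177 cells. *S100a9*, a calcium-binding protein of neutrophil granulocytes, had 150 UMIs there and 0 in WT, *S100a8* 96 and 2, and *Retnlg* 31 and 0. The list of 8 neutrophil markers summed to 1481 CPM in A20ZF7 and 26.7 CPM in WT cells, with 2 and 7 of the 8 markers at 0. In cells with no *S100a8* or *S100a9* UMI, *Il1b* was at 1047 CPM (816 to 1322) in 44 WT cells and 1423 CPM (1260 to 1602) in 169 A20ZF7 cells. These intervals overlap at their ends, which does not show equal levels, and no ratio interval was computed for these cells. The 1 WT cell left out held 0 *Il1b* UMIs, and the 8 A20ZF7 cells left out held 24. The part of neutrophil RNA in the remaining difference was not tested.

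Dendritic-like cells, led by class II genes and *Apol7c*, had *Il1b* levels in the range of the macrophage subclusters. The 15 WT cells held 37 UMIs (969.5 CPM) and the 148 A20ZF7 cells 165 UMIs (596 CPM), a ratio of 0.614 (0.428 to 0.903). Of the WT UMIs, 35 lay in 3 cells, so the WT level rests on those 3. A UMI was present in 4 of the 15 WT and 63 of the 148 A20ZF7 cells. Of the genes measured in these cells, 21.6% were higher in A20ZF7 mice by 2-fold or more and 6.01% lower. Macrophage markers summed to 2594 CPM in the WT and 628 CPM in the A20ZF7 dendritic-like cells.

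**Figure D2:**
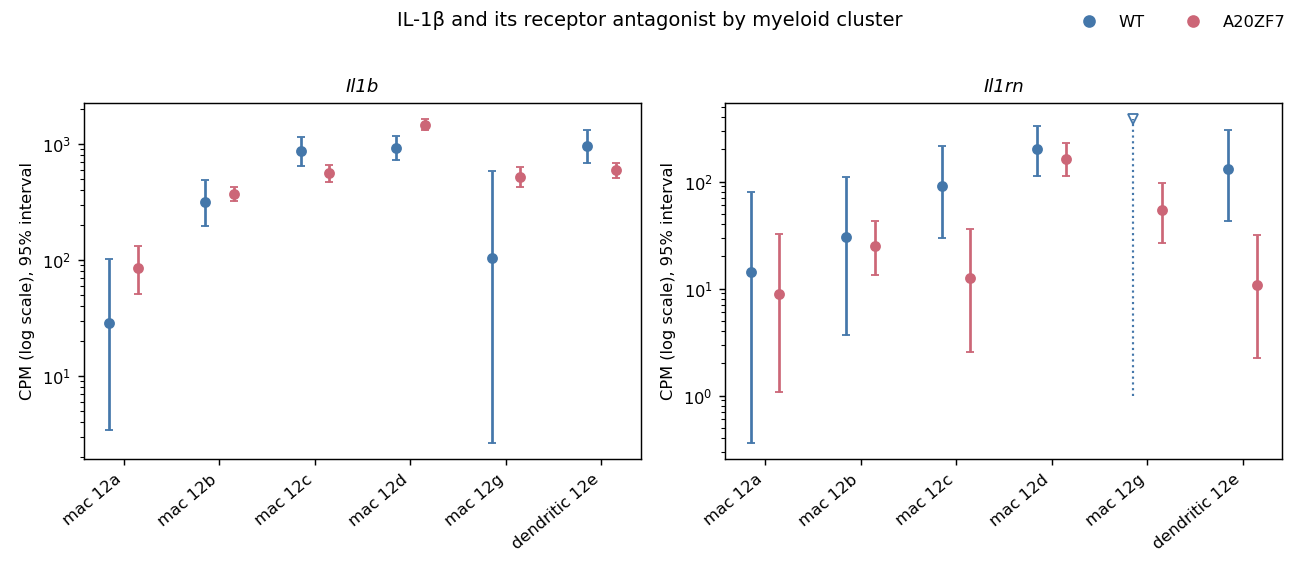
*Il1b* (left) and *Il1rn* (right) levels in CPM on a log axis, with exact 95% counting intervals, in 5 macrophage-like subclusters and the dendritic-like cells (12e), WT in blue and A20ZF7 in red; the open triangle is the upper limit where no UMI was found. *Il1b* is highest in subcluster 12d of the A20ZF7 library (1476 CPM), and the WT points of 12c and 12e rest on few cells.

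*Il1rn*, whose product blocks the IL-1 receptor, was also read mainly in macrophage-like cells, where its level was lower in the A20ZF7 library. It had 23 UMIs (83.5 CPM, 53.0 to 125) in WT and 62 UMIs (44.7 CPM, 34.2 to 57.3) in A20ZF7 macrophage-like cells, a ratio of 0.535 (0.327 to 0.904). The macrophage markers of these cells were lower as well, and per 1000 of their UMIs *Il1rn* was at 10.6 in WT and 8.59 in A20ZF7 mice, a ratio of 0.812 (0.495 to 1.38) whose interval spans 1. Over all cells its ratio was 1.26 (0.860 to 1.89). The macrophage-like cells held 62.2% of all WT and 58.5% of all A20ZF7 *Il1rn* UMIs, and the A20ZF7 share was 30.2% with a gate on marker UMIs and 72.5% with at least 1000 UMIs per cell. In the A20ZF7 library T-like cells held 14.2%, at 15 UMIs, of which 10 lay in the *Foxp3* cluster (13) of 1433 cells. A UMI was found in 16 of 210 WT cells (7.62%) and 54 of 1124 A20ZF7 cells (4.804%), against 0 of 2167 and 15 of 14,398 T-like cells (0.104%). In subcluster 12d, where *Il1rn* was highest, the libraries did not differ beyond counting error, at 200.1 CPM in WT and 163 CPM in A20ZF7 mice, with a ratio of 0.814 (0.430 to 1.61). In 12c there were 5 WT and 3 A20ZF7 UMIs, and in dendritic-like cells again 5 and 3.

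The balance of agonist to antagonist mRNA in macrophage-like cells was 6.17 *Il1b* UMIs for each *Il1rn* UMI in WT (3.96 to 10.1) and 12.2 in A20ZF7 mice (9.38 to 16.0). The ratio of these balances was 1.97 (1.13 to 3.35), and it needs no library total. Both transcripts were found together in 6 of 210 WT cells and 34 of 1124 A20ZF7 cells. The animals behind the WT library were themselves apart in *Il1b*: by their hashtags, WT mouse 1 had 75 UMIs in 77 macrophage-like cells (690 CPM) and WT mouse 2 had 34 in 73 cells (353 CPM), a ratio of 0.512 (0.331 to 0.777). *Il1rn* was at 120 CPM and 51.9 CPM in the same animals, a ratio of 0.434 (0.121 to 1.30). Without the cells called as WT mouse 1 the *Il1b* ratio of A20ZF7 to WT was 1.35, and without those of WT mouse 2 it was 0.9004. The *Il1rn* ratio was 0.744 and 0.444. The 60 WT macrophage-like cells with no hashtag call stayed in both times, so neither ratio is against 1 animal alone. The A20ZF7 animals could not be separated in the same way, because its antibody counts are identical to those of the WT library, with 17,857,336 and 14,965,342 UMIs of the WT hashtags but 4485 and 6888 of its own.

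*Il1b* was also read in fibroblast-like cells, at 18.5 CPM in WT and 14.99 CPM in A20ZF7 mice, against free RNA levels of 14.1 and 37.6 CPM, so the WT level was near that of free RNA and the A20ZF7 level below it. It was uneven among the fibroblast clusters. In the WT library, the *Plac9a* and *Mfap4* cluster (9) held 92 UMIs in 86 of its 2202 cells (34.9 CPM), and the *Adamdec1* cluster (0) had 26.3 CPM, against 1.65 CPM in the *Pi16* cluster (6) and 5.10 CPM in the *Mmp10* cluster (7). In the A20ZF7 library the *Adamdec1* cluster had 21.2 CPM, the *Pi16* cluster 7.82 CPM and the *Mmp10* cluster 6.03 CPM. To set this beside carried-over macrophage RNA, *Il1b* was counted per 1000 UMIs of the macrophage marker list. There were 304 in WT and 178 in A20ZF7 fibroblast-like cells and 773 in the WT *Plac9a* cluster, against 65.3 and 105 in the macrophage-like cells. The dendritic-like cells, however, had 374 (249 to 550) in WT and 948 (762 to 1180) in A20ZF7 mice. Whether the fibroblast UMIs were carried over from myeloid cells was not tested.

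*Il1a*, the gene of IL-1α, was rare, and its UMIs were read in macrophage-like, smooth muscle-like and, in the A20ZF7 library, ILC-like cells. Macrophage-like cells had 2 WT and 17 A20ZF7 UMIs (7.26 and 12.2 CPM), and 9 of these 17 lay in subcluster 12d. Smooth muscle-like cells had 8 and 5 UMIs (2.94 and 2.28 CPM), all of them in the *Actg2* cluster (17). ILC-like cells had 0 and 6 UMIs, the 6 in cluster 3, and T-like cells 0 and 3. Fibroblast-like and endothelial-like cells had 1 A20ZF7 UMI each. No ratio is given because the leading class held fewer than 20 UMIs.

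*Il18* was an epithelial transcript, and its level in epithelial-like cells was far lower in the A20ZF7 library. It had 577 UMIs in 588 WT cells (265 CPM, 244 to 288) and 22 UMIs in 329 A20ZF7 cells (52.0 CPM, 32.6 to 78.7), a ratio of 0.196 (0.122 to 0.299). Of all genes measured in this class, 16.4% were lower by 2-fold or more in A20ZF7 mice and 26.5% higher, so the class as a whole differed between the libraries. A UMI was found in 271 WT cells (46.1%, median depth 3767 UMIs) and 17 A20ZF7 cells (5.17%, median depth 903 UMIs), against 6 of 2167 (0.277%) and 8 of 14,398 (0.0556%) T-like cells. Free RNA held *Il18* at 17.8 CPM in WT and 3.13 CPM in A20ZF7 mice, in the same order as the cells.

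The epithelial content of the class moved with *Il18*. The 13 epithelial markers summed to 29,990 CPM in WT and 6732 CPM in A20ZF7 epithelial-like cells, a ratio of 0.224 (0.216 to 0.233). Counted per 1000 of these marker UMIs, *Il18* was at 8.85 in WT and 7.72 in A20ZF7 mice, a ratio of 0.873 (0.542 to 1.34). In the *Fabp1* and *Apoa1* cluster alone (19), 268 of 496 WT cells and 12 of 78 A20ZF7 cells had a UMI, and the levels were 277 and 92.2 CPM, a ratio of 0.333 (0.193 to 0.538), with 15.2% of genes lower by 2-fold or more and 19.1% higher. Its marker sum was 31,012 and 11,764 CPM, and *Il18* per marker UMI had a ratio of 0.878 (0.507 to 1.42). Relative to the epithelial markers, *Il18* did not differ beyond counting error, though the interval allows a level 0.542 times or 1.34 times that of WT. In the A20ZF7 library the fibroblast-like cells, at 52 UMIs, held 42.3% of all *Il18* UMIs, but their level of 3.43 CPM was that of free RNA. WT mice 1 and 2 had 184 and 194 CPM in epithelial-like cells, while WT cells with no hashtag call had 304 CPM.

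**Figure D3:**
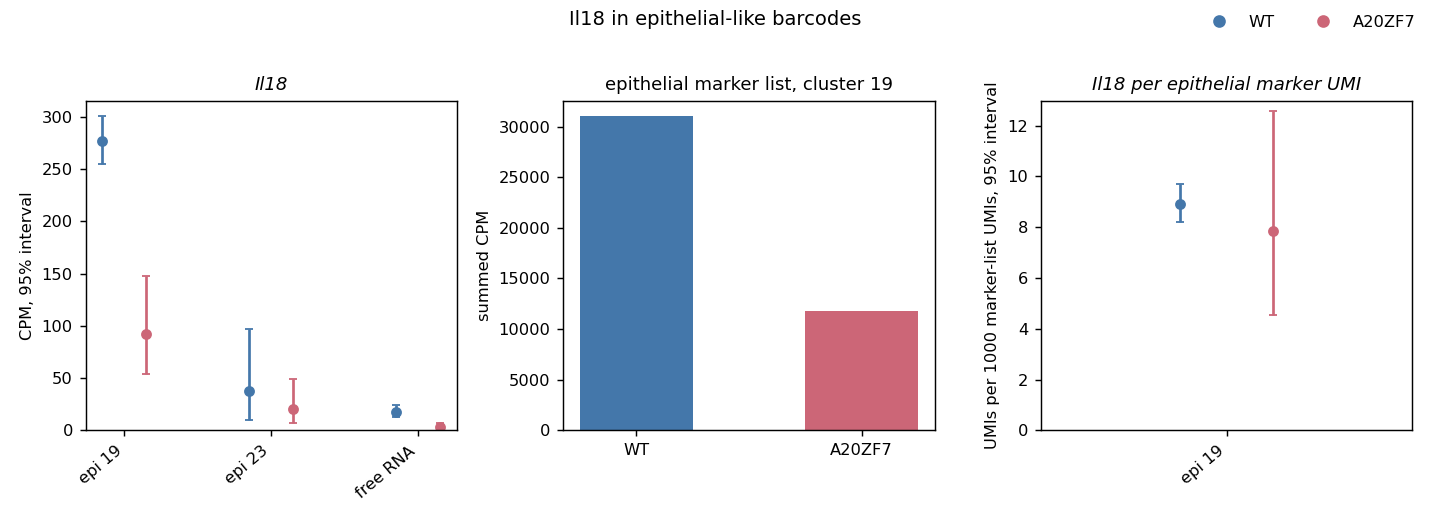
*Il18* level in CPM with 95% counting intervals in both epithelial-like clusters (19 and 23) and in free RNA (left), the summed CPM of the epithelial markers in cluster 19 (middle, bars from 0), and *Il18* UMIs per 1000 marker UMIs in cluster 19 (right), WT in blue and A20ZF7 in red. The levels in cluster 19 are apart (277 and 92.2 CPM), as are the marker sums, while the intervals per marker UMI overlap (8.93 and 7.84).

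The inflammasome genes that act on pro-IL-18 were read in the same cells. *Nlrc4*, which partners the NAIP sensors of bacterial flagellin and secretion needles, was at 65.3 CPM in WT and 11.8 CPM in A20ZF7 epithelial-like cells, a ratio of 0.181 (0.0578 to 0.432). *Nlrp6*, a sensor of the intestinal epithelium, was at 115 and 47.3 CPM, and *Pycard*, the adaptor ASC, at 426 and 281 CPM. *Casp1*, which cuts pro-IL-18, was at 97.5 and 59.1 CPM, and *Gsdmd*, the pore former, at 149 and 75.6 CPM. Of the list of chains, processing genes and decoys, 2 of 11 measured genes (of 16 listed) were lower by 2-fold or more and 2 were higher, against 16.4% and 26.5% of all genes in this class, and the epithelial markers had a ratio of 0.224. Of the receptor genes, 10 of 12 measured (of 14 listed) were higher by 2-fold or more, among them *Il23r* (14.7 and 260 CPM), and of the upstream sensing genes 3 of 5 (of 12 listed), again against 26.5%. The T cell marker list stood 249.8 and 2105 CPM in the same cells, and its part in these values was not tested.

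*Il33* had the most UMIs of the members over both libraries, and fibroblast-like cells held 71.7% of its WT and 76.4% of its A20ZF7 UMIs. It stood at 114 CPM (106 to 122) in WT and 69.4 CPM (65.3 to 73.7) in A20ZF7 fibroblast-like cells, a ratio of 0.609 (0.555 to 0.670). The 12 fibroblast markers were lower as well, with sums of 23,564 CPM in WT and 16,954 CPM in A20ZF7 fibroblast-like cells. Per 1000 of their UMIs *Il33* was at 4.83 (4.50 to 5.19) in WT and 4.09 (3.85 to 4.35) in A20ZF7 mice. In this class 4.89% of genes were lower by 2-fold or more, and none of *Il33*, *Il6* and *Tslp* was. Smooth muscle-like cells came next, at 61.1 and 55.7 CPM, followed in WT by epithelial-like (35.0 CPM) and endothelial-like cells (34.6 CPM), whose intervals overlap. T-like cells had 1.01 and 2.97 CPM, and free RNA 16.9 and 13.8 CPM. WT mice 1 and 2 were close, at 86.9 and 93.8 CPM, with 131 CPM in WT cells that had no hashtag call.

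The clusters of the fibroblast class differed both in level and in size. Cluster 9 (*Plac9a*, *Mfap4*) had the highest fibroblast level, 173 CPM in WT, and held 2202 WT but only 105 A20ZF7 cells. Those A20ZF7 cells had 6 UMIs (55.5 CPM), a ratio of 0.321 (0.117 to 0.705). Cluster 0 (*Adamdec1*) held 593 WT and 6662 A20ZF7 cells, with 109 and 63.5 CPM, a ratio of 0.582 (0.463 to 0.739). In the *Pi16* cluster (6), which both libraries filled, *Il33* was at 111 and 120 CPM, a ratio of 1.08 (0.886 to 1.32), with 7.19% of its genes higher by 2-fold or more and 3.41% lower. Per 1000 fibroblast marker UMIs, *Il33* in the *Pi16* cluster was at 3.92 (3.29 to 4.64) in WT and 5.63 (5.08 to 6.22) in A20ZF7 mice. Cluster 0 had the other order, 6.20 (4.96 to 7.65) and 3.72 (3.41 to 4.06). The *Mmp10* cluster (7) had 50.2 and 44.7 CPM and the *Sox6* and *Pdgfra* cluster (11) 36.2 and 31.1 CPM. Without clusters 0 and 9, the fibroblast ratio was 1.12, so the direction of the class ratio turned. Besides 1.08 in the *Pi16* cluster, the clusters left in had ratios of 0.891 (0.634 to 1.26) in cluster 7 and 0.860 (0.547 to 1.37) in cluster 11. All 3 intervals span 1. The *Pi16* cluster held 905 WT and 2628 A20ZF7 cells, cluster 7 914 and 1750, and cluster 11 730 and 1426. The ratio of 1.12 thus reads the makeup of these cells together with the level within them. For clusters 0 and 9, genotype and cluster membership cannot be told apart.

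*Il33* was also high in 1 smooth muscle-like and 1 endothelial-like cluster. The *Actg2* smooth muscle cluster (17) had 197 CPM in WT and 149.8 CPM in A20ZF7 mice, a ratio of 0.759 (0.574 to 0.998), with 7.78% of genes higher by 2-fold or more and 4.90% lower, whereas the *Notch3* cluster (10) had 0 UMIs in 1274 WT cells and 5 in 943 A20ZF7 cells. The *Ccl21a* and *Lyve1* endothelial cluster (24) had 276 CPM in 22 WT cells and 154 CPM in 153 A20ZF7 cells, a ratio of 0.558 (0.241 to 1.50). The other endothelial clusters were lower, at 20.5 and 10.2 CPM in cluster 15 and 30.7 and 22.6 CPM in cluster 20. The *Fabp1* epithelial cluster had 33.8 CPM in WT, or 26.8 per 1000 fibroblast marker UMIs against 4.83 in the fibroblast-like cells themselves. Its A20ZF7 cells held 1 UMI.

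**Figure D4:**
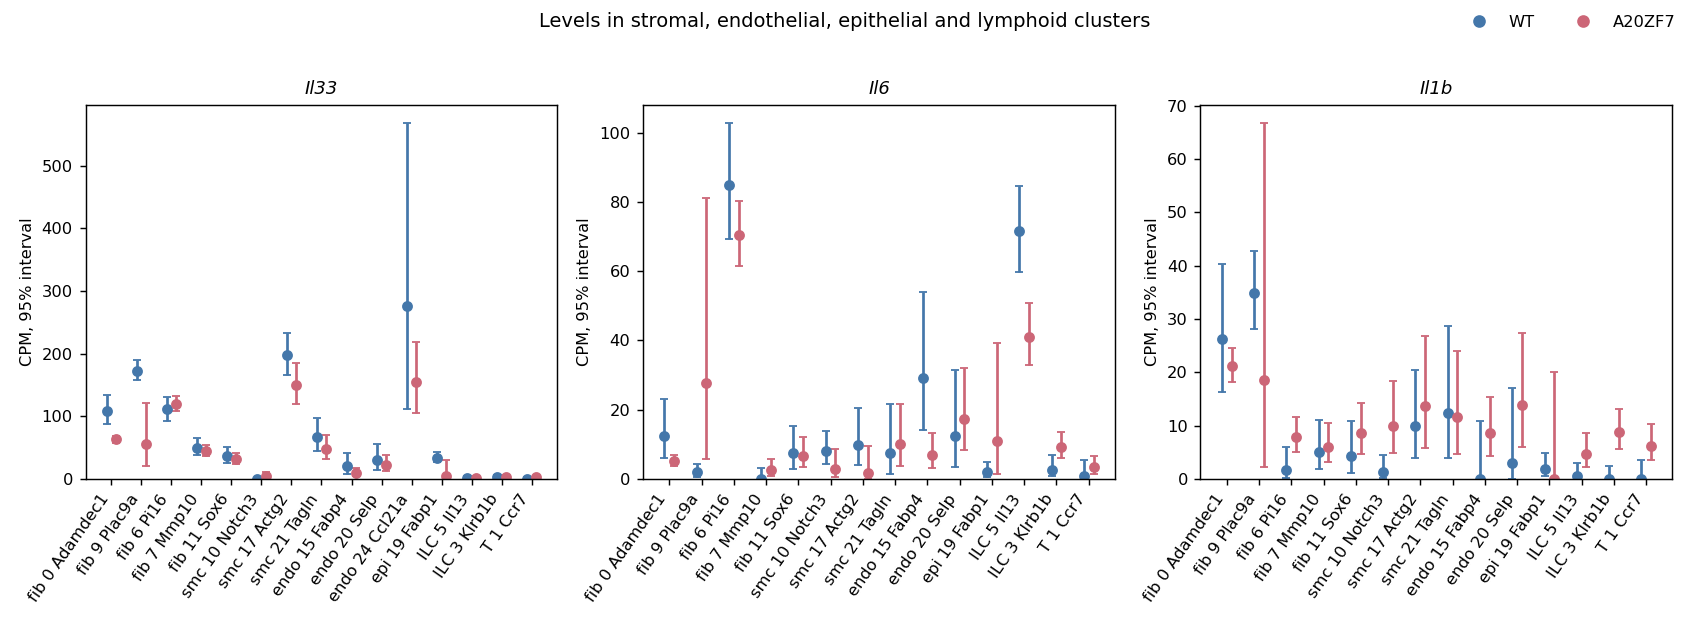
*Il33*, *Il6* and *Il1b* levels in CPM with 95% counting intervals in fibroblast-like (fib), smooth muscle-like (smc), endothelial-like (endo), epithelial-like (epi), ILC-like and T-like clusters, WT in blue and A20ZF7 in red, each cluster named by its number and 1 of its genes. *Il33* is high in cluster 9 of the WT library (173 CPM) and in cluster 17 (197 and 149.8 CPM), and *Il6* in clusters 6 and 5; cluster 24, with 22 WT cells, is left out of the *Il6* and *Il1b* panels.

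*Tslp*, an alarmin that acts through CRLF2 and the IL-7 receptor, was found at low level in stromal cells. Fibroblast-like cells had 61 UMIs (9.02 CPM, 6.90 to 11.6) in WT and 91 UMIs (6.01 CPM, 4.84 to 7.38) in A20ZF7 mice, a ratio of 0.666 (0.476 to 0.937). The fibroblast markers of these cells were lower as well, with sums of 23,564 CPM in WT and 16,954 CPM in A20ZF7 mice. No *Tslp* level per marker UMI was computed, so a fall beyond that of the markers was not shown. Endothelial-like cells had 7 and 9 UMIs, or 10.1 and 4.38 CPM. No UMI was found in T-like cells of either library, and free RNA held 1.37 CPM in WT and none in A20ZF7 mice, so the fibroblast level was above the background. Within the *Pi16* cluster the level was 14.8 and 7.51 CPM, a ratio of 0.506 (0.264 to 0.9905).

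*Il6*, which is widely made by stromal cells, was read mainly in a fibroblast cluster and an ILC cluster. Fibroblast-like cells had 125 UMIs (18.5 CPM) in WT and 287 UMIs (18.95 CPM) in A20ZF7 mice, a ratio of 1.03 (0.828 to 1.27). Per 1000 fibroblast marker UMIs, in contrast, *Il6* was at 0.785 (0.653 to 0.935) in WT and 1.12 (0.992 to 1.25) in A20ZF7 mice, intervals that do not overlap. Most fibroblast *Il6* was in the *Pi16* cluster, with 103 UMIs (84.8 CPM, 69.2 to 103) and 225 UMIs (70.4 CPM, 61.5 to 80.2), a ratio of 0.830 (0.654 to 1.06). Per 1000 marker UMIs that cluster had 2.99 (2.44 to 3.63) and 3.30 (2.88 to 3.76), whose intervals overlap. The *Adamdec1* cluster (0) had the other order than the class, with 10 WT and 43 A20ZF7 UMIs (12.5 and 5.24 CPM), a ratio of 0.418 (0.207 to 0.932). Per 1000 marker UMIs it had 0.713 (0.342 to 1.31) and 0.307 (0.222 to 0.414), whose intervals overlap. The class values thus read the makeup of the clusters together with the level within them. ILC-like cells held 43.5% of the WT and 20.3% of the A20ZF7 UMIs. There most UMIs were in the cluster marked by *Il13*, *Gata3* and *Calca* (5), with 133 UMIs in WT (71.5 CPM, 59.8 to 84.7) and 87 in A20ZF7 mice (41.1 CPM, 32.9 to 50.7), a ratio of 0.575 (0.434 to 0.759). In that cluster 111 of the 1681 WT cells and 78 of the 2126 A20ZF7 cells held a UMI. The levels of the other ILC cluster (3) were 2.71 and 9.17 CPM. Per 1000 fibroblast marker UMIs the *Il13* cluster had 328 and 171 *Il6* UMIs against 0.785 and 1.12 in fibroblast-like cells, and free RNA stood at 6.38 and 5.64 CPM. In this cluster 4.32% of genes were lower by 2-fold or more and 5.15% higher, and *Il6* was in neither group. By class, ILC-like cells had 41.1 CPM in WT and 23.1 CPM in A20ZF7 mice, and in A20ZF7 mice this did not stand apart from fibroblast-like cells beyond counting error. WT mice 1 and 2 had 36.2 and 37.6 CPM in ILC-like cells.

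The genes of the heterodimeric cytokines were close to the limit of detection, and the WT library held almost none of their UMIs. *Il12b* had 1 UMI in all WT cells and 53 in A20ZF7 cells, a ratio of 23.3 (4.01 to 939) that again rests on 1 WT UMI and on how many myeloid cells each library held. In macrophage-like cells there were 1 and 20 UMIs (3.63 and 14.4 CPM), a ratio of 3.97 (0.635 to 164). In this class 9.40% of genes were higher by 2-fold or more and 3.39% lower. Dendritic-like cells had 0 WT UMIs, which allows a level of up to 78.6 CPM, and 25 UMIs in A20ZF7 mice (90.2 CPM, 58.4 to 133) in 12 of 148 cells, 14 of them in 3 cells. With 15 WT cells, a WT level below that of A20ZF7 mice was not shown at this depth. Subcluster 12d held 12 A20ZF7 UMIs (59.2 CPM) and 1 WT UMI.

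*Il23a*, the p19 chain that makes IL-23 with the *Il12b* product, was at 0 in the macrophage-like and dendritic-like cells of both libraries, which allows levels of up to 10.9 and 78.6 CPM in WT and 2.16 and 10.8 CPM in A20ZF7 mice. Its 1 WT UMI was in an epithelial-like cell, and the 7 A20ZF7 UMIs were in fibroblast-like (3), T-like (2), smooth muscle-like (1) and ILC-like (1) cells. *Il27* had 1 WT and 14 A20ZF7 UMIs in macrophage-like cells (3.63 and 10.1 CPM), the latter in 13 of 1124 cells, and none in dendritic-like cells. Over all cells *Il27* had a ratio of 3.41 (1.21 to 13.3). It rests on 4 WT UMIs and reads the makeup of the captured cells together with the level within them. *Il12a*, the partner of *Il12b* in IL-12, had 7 UMIs in WT and 3 in A20ZF7 fibroblast-like cells, and *Ebi3*, the partner of *Il27*, was at 29.1 and 30.3 CPM in macrophage-like cells.

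**Figure D5:**
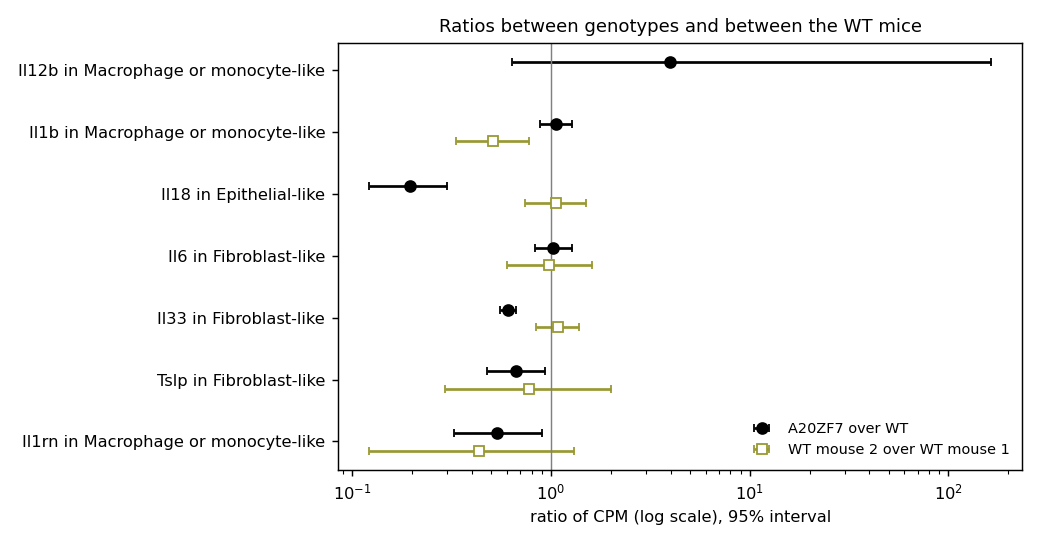
Ratio of A20ZF7 to WT level (filled points) and of WT mouse 2 to WT mouse 1 (open squares) on a log axis with 95% counting intervals, for the 7 members with 20 or more UMIs in their leading class; *Il12b* has no ratio between the mice. *Il1b* is near 1 between the genotypes (1.05) but 0.512 between the WT mice, *Il1rn*, *Il33*, *Tslp* and *Il18* lie below 1, and the interval of *Il12b* spans 1.

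The receptors of these cytokines were read in lymphocytes and in stromal cells. The leading class was fibroblast-like cells for *Il1r1*, *Il1rap*, *Il6ra*, *Il6st* and *Crlf2*, and T-like or ILC-like cells for the other receptor genes. *Il6ra*, the IL-6 receptor, was at 82.2 CPM in WT and 68.8 CPM in A20ZF7 fibroblast-like cells, and at most 8.28 CPM in any T or ILC cluster. Its partner *Il6st* was at 173 and 145 CPM in fibroblast-like cells. *Il23r* was at 289 CPM in WT and 482 CPM in A20ZF7 ILC-like cells, a ratio of 1.67 (1.55 to 1.80). The T cell markers stood at 1543 and 2288 CPM in the same cells, and their part in this ratio was not tested. By cluster *Il23r* stood at 572 and 699 CPM in ILC cluster 3, at 64.5 and 203 CPM in the *Il13* ILC cluster (5) and at 471 and 526 CPM in the *Il17a* T cell cluster (2), which held 138 WT and 5078 A20ZF7 cells. *Il1r1*, the signalling IL-1 receptor, was at 358 and 320 CPM in ILC cluster 3. *Il1r2*, the decoy receptor that takes up IL-1β without signalling, was at 35.3 and 223 CPM in T-like cells, a ratio of 6.30 (4.97 to 8.11), and at 247 and 416 CPM within the *Il17a* cluster. *Il12rb2* went the other way, at 471 and 128 CPM in T-like cells, and at 600.1 and 163 CPM in the *Ccr7* and *Tcf7* cluster (1). *Il18r1* was at 279 and 353 CPM in T-like cells. *Il1rl1*, the receptor of IL-33, was highest in the *Foxp3* cluster (13), at 248 CPM (21 UMIs) in WT and 179 CPM in A20ZF7 mice, and stood at 26.9 and 58.6 CPM in the *Il13* ILC cluster.

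In T-like cells 3 of 14 measured receptor genes were higher by 2-fold or more and 1 was lower, against 7.76% and 3.31% of all genes. The higher ones were *Il1r2*, *Il23r* (170.0 and 381 CPM) and *Il1rl1* (13.6 and 28.6 CPM). These class values read the makeup of the class too, as the *Il17a* cluster held 138 WT and 5078 A20ZF7 cells and the *Foxp3* cluster 84 and 1433. Within the *Foxp3* cluster *Il1rl1* was at 248 CPM (153 to 379) in WT and 179 CPM (157 to 204) in A20ZF7 mice, intervals that overlap. In clusters 1, 4 and 2 it had 5, 1 and 0 WT UMIs. The levels there were 4.93 and 12.8, 1.33 and 9.27, and 0 and 6.09 CPM, again with overlapping intervals. No ratio interval was computed for *Il1rl1* in these clusters. *Il23r* was at 471 and 526 CPM in the *Il17a* cluster, and at 211 and 350, 74.8 and 242, and 47.2 and 294 CPM in clusters 1, 4 and 13. In ILC-like cells, 1 of 14 measured receptor genes was higher by 2-fold or more (*Il1r2*, 41.7 and 107 CPM) and none was lower, against 5.0% and 3.36% of all genes. In macrophage-like cells 2 of 14 receptor genes were higher, against 9.40% of all genes: *Il23r* (61.7 and 171 CPM) and *Il27ra* (14.5 and 41.1 CPM), beside a T cell marker sum of 1456 CPM in WT and 1862 CPM in A20ZF7 cells, whose part was not tested. Of 13 measured chains, processing genes and decoys, 1 was lower, against 3.39% of all genes: *Il18bp*, the soluble antagonist of IL-18, at 113 and 32.4 CPM, a ratio of 0.288 (0.178 to 0.471). *Nlrp3*, the inflammasome sensor that leads to IL-1β release, was at 58.1 and 78.5 CPM, a ratio of 1.35 (0.796 to 2.45). Of the upstream sensing genes, 1 of 10 measured (of 12 listed) was higher by 2-fold or more and none lower, against 9.40% and 3.39% of all genes. From this list the NF-κB genes *Nfkb1*, *Nfkbia* and *Tnfaip3* had ratios of 1.77 (1.41 to 2.24), 1.46 (1.22 to 1.75) and 1.31 (1.12 to 1.54), none of them past 2-fold. Their leading classes were lymphocytes, T-like cells for *Tnfaip3* and ILC-like cells for *Nfkb1* and *Nfkbia*. The part of lymphocyte RNA in these ratios, beside the T cell marker sums of 1456 and 1862 CPM, was not tested. *Cd14* of the same list had a ratio of 1.11 (0.657 to 1.98). In fibroblast-like cells 7 of 14 receptor genes were higher by 2-fold or more, against 8.19% of all genes, again beside T cell markers of 480 and 1464 CPM, while *Il1r1* was level at 173 and 170 CPM. Of the chains, processing genes and decoys, 5 of 12 measured were higher there, among them *Casp4* (56.1 and 122 CPM). Of the upstream sensing genes 4 of 11 were higher. None of these 3 lists had a gene lower by 2-fold or more, against 4.89% of all genes.

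The genes most like each member across the 24 class and library values, by Pearson correlation of log2(CPM + 10), were named for likeness of level alone. For *Il1b* they were *Apol7c* (0.956), *Gm34084* and *Cd86*, for *Il1rn* *Lyz2* (0.947), *Il1b* and *Apol7c*, and for *Il18* *Mttp* (0.985), *Guca2b* and *Apob*. *Il33* was most like *Gstm2* (0.968), *Yap1* and *Islr*, and *Tslp* most like *Spin4* (0.924), *Ddah1* and *Cryz*. *Il12b* was most like *Arhgap22* (0.960), *Cd40* and *Kcnk6*. For *Il6* the nearest were *Mras* (0.838), *Gm16201* and *Lrrk2*. The 24 points share their 2 libraries and depths, so these values are descriptions.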

How the data were processed

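The 10 members and every marker and partner list were chosen with earlier results of these data known. Per the labels and the study's methods, lamina propria cells of 2 mice per genotype passed a negative selection kit for T cells and ILCs and were hashtagged per animal and captured with a 5′ kit. The authors deposited raw UMI counts per gene and barcode for all 576,003 WT and 612,069 A20ZF7 barcodes. The submitters' notes name Cell Ranger 7.1 and mm10, whereas the headers of the gene expression files name version 8.0.0, and the libraries list 33,696 and 32,285 gene IDs, of which the 31,950 shared ones were used. No column of a sample outside the series was used (0 columns).

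Kept barcodes had 200 to 2500 genes, at most 15% mitochondrial UMIs, at least 675 (WT) or 396 (A20ZF7) UMIs by a per-library order-of-magnitude rule, and no pair of WT hashtags. In all 20,331,737 WT and 46,174,742 A20ZF7 UMIs in cells were analysed. The antibody counts deposited for A20ZF7 are identical to those of WT and were not used, so doublets between A20ZF7 animals stayed in, as did doublets within an animal. Scrublet's own threshold marked 0 WT and 3 A20ZF7 cells, too few to be used, and a fixed score was tried as an alternative. In the WT cells, hashtags gave 3483 barcodes to mouse 1 and 4098 to mouse 2, and 7172 had no call. The study's filter without a UMI threshold left 24,858 and 51,855 barcodes.

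Cells were clustered with Seurat 5.3.0 in R 4.3.3 (2000 variable genes, 30 components, resolution 0.8), with the members kept out of the variable genes and the markers. A cluster was named from the marker list with the highest mean log2 fold over the other clusters. This fold had to reach 0.4, and at least 3 of its own markers had to be detected in 5% of cells. It stayed unnamed when a second list reached 1.0, other than between myeloid lists. The same held when another list had more of the leading genes, or when pancreatic enzymes led. UMIs were summed per class and library and given as CPM of all shared IDs with exact Poisson intervals. Shares of cells have exact binomial (Clopper-Pearson) intervals and ratios exact conditional ones, by scipy 1.17.1 in Python 3.11.15. All cover counting error at 95%. Coverage was tested for the ratio intervals alone, on simulated Poisson counts with equal totals. These are the counts that such intervals assume, so the test checks the calculation and leaves out UMIs that cluster in few cells. A count of 0 allows a level of up to 3 UMIs of the total. The leading class of a member holds most of its UMIs with the libraries weighted equally, and a ratio is given there from 20 UMIs. The share of genes past 2-fold was taken over genes with at least 20 UMIs in that class. The rule was to name all 10 members, partner genes with at least 20 UMIs and, for members with at least 50 UMIs, the 3 genes most like them. Only some of those partner genes are named. Genes, clusters and levels per marker UMI given beyond this rule were chosen after their values were seen. The alternatives tried were other UMI, gene and doublet limits, other resolutions, a marker gate, another CPM total, free RNA subtraction and thinning to 500 UMIs. The cells called for each WT mouse were also left out in turn, while those with no call stayed in. Chosen after seeing the data were leaving out clusters, shared barcodes or the cell with the most UMIs.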

Additional observations from a re-analysis of the deposited data

How the results depend on the processing

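Of 110 recomputed ratios, 104 moved by less than their counting interval, 5 moved by more and 1 reversed. For *Il1b* in macrophage-like cells (1.05), thinning each cell to 500 UMIs gave 1.27, with 6342 A20ZF7 and 0 WT cells of all classes left out as too shallow. Leaving out the cells called as WT mouse 2 or as WT mouse 1 gave 0.9004 to 1.35, with the cells that had no call kept in. *Il18* in epithelial-like cells (0.196) was 0.349 with a gate on marker UMIs and 0.333 in cluster 19 alone, a choice made after seeing the data, and 0.123 after thinning. *Il6* in fibroblast-like cells (1.03) was 1.32 after thinning. *Il33* in fibroblast-like cells (0.609) was 1.12 without clusters 0 and 9, a choice made after seeing the data, and lay below 1 under every other alternative. The cause of these moves was not tested. Of 195 recomputed levels 153, and of 143 recomputed shares 123, moved by less than their interval; the macrophage-like share of A20ZF7 UMIs ranged from 29.0% to 54.9% for *Il1b* and from 30.2% to 72.5% for *Il1rn*. The *Il12b* ratio in macrophage-like cells ranged from 1.50 to 5.18 and had no value without WT mouse 2, whose cell held the 1 WT UMI, and *Il1rn* from 0.439 to 0.744, below 1 throughout. No paired analysis was possible because each genotype is 1 library and the mice of the A20ZF7 library could not be separated. Depth limits *Il23a*, *Il12b*, *Il27* and *Il1a* most, and the number of WT myeloid cells limits every myeloid comparison.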
